A study of Rattus norvegicus with 16 samples.

Results

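The transcripts of CaM kinase II, the calcium- and calmodulin-dependent protein kinase of excitatory synapses, were examined in the CA1 field of the rat hippocampus after a seizure early in life. The members were all isoforms that the deposited table assigns to Camk2a, Camk2b, Camk2d or Camk2g, which encode the alpha, beta, delta and gamma subunits. They numbered 10 of 21698 isoforms, 2 of Camk2a, 3 of Camk2b, 3 of Camk2d and 2 of Camk2g, and belonged to 4 of 16602 gene symbols. All 10 were annotated as protein coding, and none had the same values as another isoform in every library.

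Male Sprague-Dawley pups were injected under the skin on postnatal day 7 with kainate, which activates glutamate receptors and sets off seizures, at 2 mg/kg, or with saline. According to the labels every kainate rat seized and none died. Both groups were killed on postnatal day 14 without anesthesia, and both had brain slices of 400 µm cut in a sucrose solution and kept for 60 min in artificial cerebrospinal fluid before CA1 was cut out. The RNA therefore came from slices, not from freshly frozen tissue, and from all cell types of the dissected piece. There were 8 kainate and 8 control libraries, and the separate numbers in the sample titles are the only sign that each came from its own rat. Nothing in the labels says how litters were spread over the groups.

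CaM kinase II is a ring of subunits that is switched on when calcium-loaded calmodulin binds, and a subunit can phosphorylate its neighbour and stay active after calcium has fallen. The alpha and beta subunits predominate in forebrain neurons. Alpha is the subunit classically tied to long-term potentiation, and its mRNA is carried into dendrites. Beta binds actin filaments in spines, and gamma and delta are expressed in many tissues.

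Values were log2 numbers as deposited, called levels below, and the depth of the libraries is unknown. Transcript lengths are not given with the values, so the levels of different genes were not ranked. Gene totals are the log2 of the summed linear values of a gene's isoforms. The first principal component of all isoforms, with 45.3% of the variance, had scores of 4.31 to 23.2 in the libraries numbered 1 to 4 of both groups and of -17.4 to -5.88 in those numbered 5 to 8. The labels name no batch, so these are called set 1-4 and set 5-8. Within set 1-4, kainate 1, kainate 2 and control 2 stood apart with scores of 21.0 to 23.2, against at most 8.86 in every other library. Of the markers of the dissected tissue, 6 of 7 CA1 pyramidal genes were measured, each averaging 1611 normalized counts or more in the authors' deposited table.

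No CaM kinase II gene total passed the threshold between kainate and control rats. The main fit had no term for the sets, so its spread includes that between set 1-4 and set 5-8. With the replicate number as a block the limma SEs were 0.038 for Camk2a, 0.036 for Camk2b, 0.035 for Camk2d and 0.025 for Camk2g. At the gene total level 0 of 4 genes passed an adjusted p of 0.05 in limma, against a background of 0% of all genes. The means of Camk2a, Camk2b and Camk2g were higher after kainate and that of Camk2d was lower, by at most 0.080 on the log2 scale. Means were higher after kainate in 47.6% of all gene totals, so a mean on one side is not in itself a result.

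Camk2a, on chromosome 18, had gene totals from 15.75 to 16.29 with a median of 15.91 in the kainate rats, and from 15.72 to 16.13 with a median of 15.90 in the controls. The groups overlapped over nearly their whole range, and the highest levels were those of kainate 2, kainate 1 and control 2, the 3 libraries that stood apart. The difference was 0.080 ± 0.077 (SE, n = 8 per group), a fold of 1.06, with a 95% interval from -0.083 to 0.243. Kainate was higher in 5 of 8 same-numbered pairs, and limma gave an adjusted p of 0.9999. With the replicate number as a block the SE was 0.038 and the interval ran from -0.0030 to 0.163. The limma p was then 0.0577 unadjusted and 0.750 adjusted. Without the 3 libraries that stood apart the difference was 0.017 ± 0.051. That removal left the groups unequally spread over the sets, and the fit had no term for them. Within set 5-8, which lost no library, the difference was 0.060. Leaving out single libraries moved the 0.080 of the main fit between 0.035, without kainate 2, and 0.114, without control 2. In bulk tissue, a change in the number of cells of a type and a change in RNA per cell cannot be told apart.

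Camk2b, on chromosome 14, had gene totals from 15.78 to 15.96 with a median of 15.91 after kainate, and from 15.69 to 15.95 with a median of 15.86 in controls. Control 1 and kainate 4 were the lowest libraries, and the groups overlapped. The difference was 0.045 ± 0.039 (SE), with an interval from -0.037 to 0.128 and a limma adjusted p of 0.9999. It was 0.022 without control 1 and 0.063 without kainate 4.

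The promoters of these 2 genes are shown because alpha and beta are the subunits whose balance is described below. They are the 250 bases before the start of each gene in RefSeq, build GRCr8, written 5′ to 3′ on the gene's strand, with every CG in capitals. Camk2a lies on the plus strand, with the stretch at chr18:56648930-56649179, and Camk2b on the minus strand, with the stretch at chr14:85147945-85148194.
Camk2a: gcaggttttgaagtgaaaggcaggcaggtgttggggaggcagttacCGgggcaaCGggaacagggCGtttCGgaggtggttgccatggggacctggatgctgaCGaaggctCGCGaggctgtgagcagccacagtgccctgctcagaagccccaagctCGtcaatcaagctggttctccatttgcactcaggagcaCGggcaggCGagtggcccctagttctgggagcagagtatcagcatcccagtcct
Camk2b: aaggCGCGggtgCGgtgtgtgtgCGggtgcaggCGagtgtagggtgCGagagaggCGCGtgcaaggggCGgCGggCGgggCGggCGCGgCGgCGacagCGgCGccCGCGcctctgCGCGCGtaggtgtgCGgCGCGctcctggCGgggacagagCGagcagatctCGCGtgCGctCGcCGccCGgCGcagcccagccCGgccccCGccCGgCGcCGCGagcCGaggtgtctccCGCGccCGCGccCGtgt
The Camk2a stretch held 10 CG and the Camk2b stretch 47, against a median of 5 over 33469 promoters of the same length. At least 47 were found in 0.227% of these promoters and at least 10 in 35.9%. The corresponding stretches of Camk2d and Camk2g, not printed, held 28 and 30. The GC box letters GGGCGG, searched on both strands, occurred 5 times for Camk2b, 3 times for Camk2d, 7 times for Camk2g and 0 times for Camk2a, and 30.5% of promoters held them. The cyclic AMP response letters TGACGTCA (1.59% of promoters), the letters TATAAA (12.9%) and CCAAT (34.0%) were found in none of the 4 stretches. These counts describe the sequence at 1 annotated start per gene; which start each deposited isoform uses was not examined.

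Camk2d, on chromosome 2, had gene totals from 10.72 to 10.94 with a median of 10.82 after kainate, and from 10.70 to 10.96 with a median of 10.88 in controls. The lowest levels were in control 2, kainate 1 and kainate 2, the libraries with the highest Camk2a. The difference was -0.043 ± 0.040 (SE), with an interval from -0.126 to 0.040. Kainate was higher in 3 of 8 pairs, and the limma adjusted p was 0.9999.

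Camk2g, on chromosome 15, had gene totals from 12.97 to 13.15 with a median of 13.06 after kainate, and from 13.02 to 13.14 with a median of 13.04 in controls. It had the narrowest spread of the family, with SDs of 0.050 in kainate and 0.039 in control rats. The difference was 0.0090 ± 0.029 (SE), with an interval from -0.053 to 0.071. Its sign changed when kainate 2 was left out, to -0.0041.

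**Figure D1:**
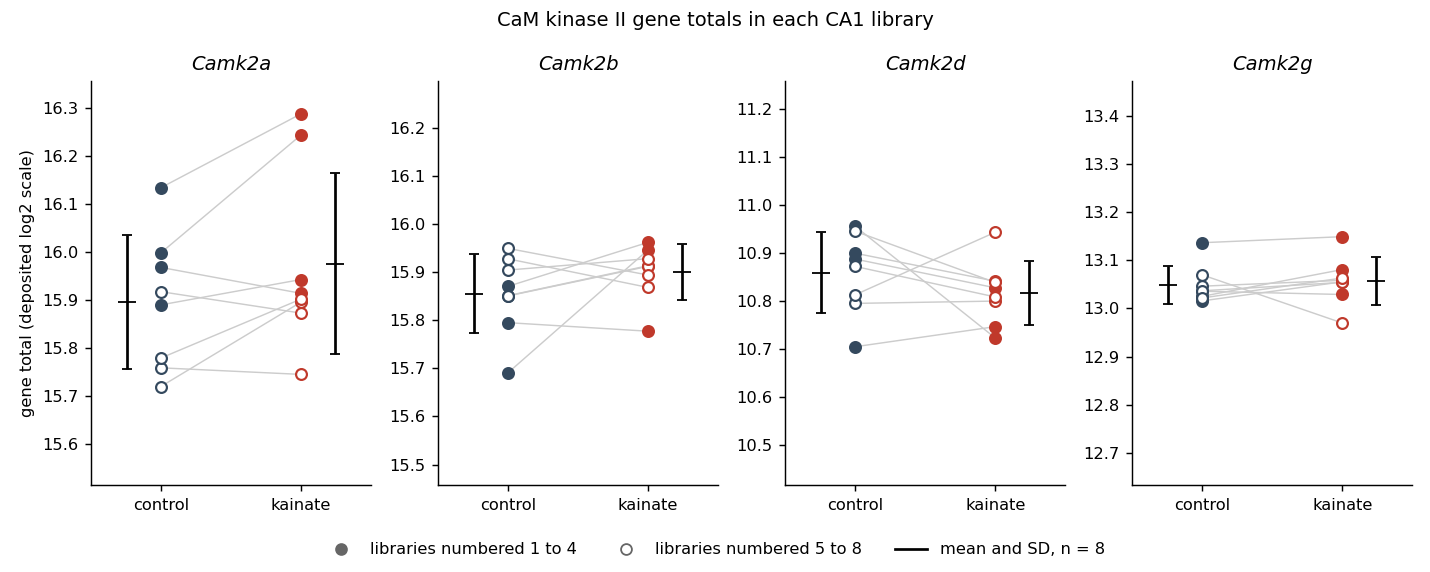
Gene totals of the 4 CaM kinase II genes on the deposited log2 scale, 1 point per library, with lines joining same-numbered libraries and bars for the mean and SD of 8 rats. Every y axis spans the same log2 range and none starts at 0; the kainate and control points overlap for each gene, and the Camk2a points of set 1-4 (filled) lie mostly above those of set 5-8 (open).

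Among the 10 isoforms, 8 had a higher mean after kainate and 2 a lower one, where 49.9% of all isoforms had a higher mean. In limma 0 of 10 passed an adjusted p of 0.05, against a background of 0%. At an unadjusted p of 0.05, 0 of 10 passed and 1.50% of all isoforms did. The median difference of the 10 was 0.042, against -0.00015 over all isoforms, and the isoforms of a gene share their rats and part of their reads.

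The largest difference was that of the minor Camk2a isoform, ENSRNOT00000080177, which had a mean of 93.4 normalized counts in the authors' deposited table. Its level ran from 6.21 to 6.92 with a median of 6.39 after kainate, and from 6.09 to 6.47 with a median of 6.33 in controls. Kainate 2 and kainate 1 exceeded every control, and the other 6 kainate libraries lay within the control range. The difference was 0.159 ± 0.096 (SE), a fold of 1.12, with kainate higher in 6 of 8 pairs. The limma adjusted p was 0.9999, and the unadjusted p was 0.118. In the limma fit across all isoforms with the replicate number as a block, its adjusted p was 0.797. It was then the 1 of 10 members with an unadjusted p under 0.05, as it was with a term for the sets. Of all isoforms, 6.13% passed that unadjusted level with the block and 4.81% with the term. Without the 3 libraries that stood apart the difference was 0.051 ± 0.064, with the groups then unequally spread over the sets. Within set 5-8, which lost no library, it was 0.109.

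The major Camk2a isoform, ENSRNOT00000041533, had a mean of 63337 normalized counts in the authors' deposited table and carried the gene total. Its level ran from 15.74 to 16.28 with a median of 15.91 after kainate, and from 15.72 to 16.13 with a median of 15.90 in controls. The groups overlapped as for the gene total, and the difference was 0.080 ± 0.078 (SE).

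Of the Camk2b isoforms, the major one was ENSRNOT00000085265, with a difference of 0.044 ± 0.039 (SE). Its lowest kainate level, 15.72 in kainate 4, stood below the other 7, which began at 15.82, and controls ran from 15.64 to 15.90. The isoform ENSRNOT00000081607 ran from 10.86 to 11.25 with a median of 10.97 after kainate, and from 10.73 to 11.23 with a median of 10.92 in controls. Control 2 was the highest control, and the groups overlapped. The difference was 0.087 ± 0.068 (SE), with kainate higher in 6 of 8 pairs. It was 0.155 within set 1-4 and 0.019 within set 5-8, 0.053 without kainate 2 and 0.131 without control 2. The weakest isoform of the family, ENSRNOT00000067162, differed by 0.041 ± 0.034 at a mean of 39.2 normalized counts in the authors' deposited table, where the deposited log2 scale compresses differences.

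The 3 Camk2d isoforms did not have differences of 1 sign. The major isoform, ENSRNOT00000015564, differed by -0.056 ± 0.052 (SE), and ENSRNOT00000016026 by -0.030 ± 0.075. ENSRNOT00000068198 differed by 0.049 ± 0.075, and this turned to -0.0057 without kainate 4. That library had the highest level of this isoform, 7.49, and the lowest of ENSRNOT00000016026, 7.77. The 2 Camk2g isoforms, ENSRNOT00000065644 and ENSRNOT00000066163, differed by 0.0095 ± 0.032 and 0.0084 ± 0.039.

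**Figure D2:**
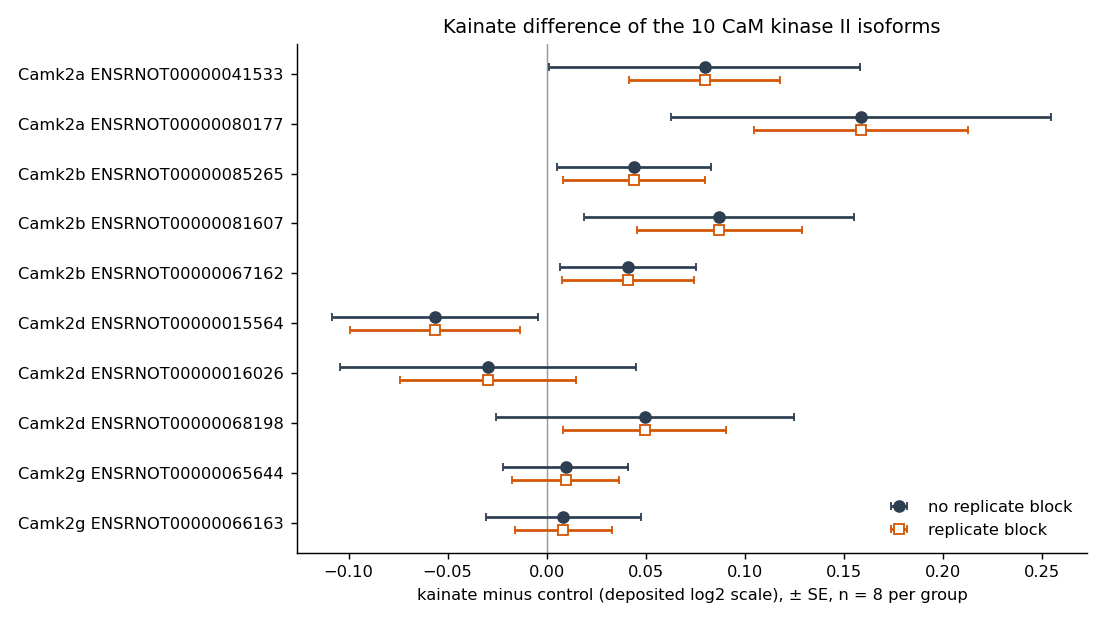
Difference of the mean log2 level, kainate minus control, for each of the 10 isoforms, with bars for ± 1 SE from limma without (filled) and with (open) the replicate number as a block, n = 8 rats per group. The points run from -0.056 to 0.159, and the bars of all 10 isoforms are shorter with the block.

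The authors' deposited table, made with their own model, listed log2 fold changes with the same signs for all 10 isoforms. In the authors' deposited table the minor Camk2a isoform had a log2 fold change of 0.184 with a standard error of 0.059, a p-value of 0.0017 and an adjusted p of 0.335, and stood at rank 87 by p. In the authors' deposited table the major Camk2a isoform had a log2 fold change of 0.10, a p-value of 0.0366 and an adjusted p of 0.692. These were the 2 of 10 members with a p-value under 0.05 there, where 5.66% of all isoforms had one, and none of the 10 had an adjusted p under 0.05, where 0.0420% of isoforms with an adjusted p had one. In the authors' deposited table of KEGG terms, CAMK2A was listed in 25 of 186 terms and in 4 of the 10 with an adjusted p under 0.05. These 4 terms were dopaminergic synapse, cholinergic synapse, long-term potentiation and circadian entrainment. CAMK2B, CAMK2D and CAMK2G were listed in 0 terms of the authors' deposited table. The terms were scored on the authors' own list of genes, so 0 terms does not place these genes outside the pathways.

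Isoform shares are percentages of the gene total on the deposited linear scale, which is per normalized count and not per molecule. The mix of isoforms did not pass the threshold for any CaM kinase II gene. In limma's diffSplice test over 3774 genes with several isoforms, 0 of 4 genes had an adjusted p under 0.05, against a background of 0%. Unadjusted p-values, each a Simes value from limma, were 0.545 for Camk2a, 0.694 for Camk2b, 0.450 for Camk2d and 0.982 for Camk2g.

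The minor Camk2a isoform made up 0.121% to 0.151% of the gene total after kainate, with a median of 0.138%, and 0.121% to 0.146% in controls, with a median of 0.130%. Kainate was higher in 7 of 8 pairs, and the groups overlapped. The Camk2b isoform ENSRNOT00000081607 made up 3.39% ± 0.31 (SD, n = 8) after kainate and 3.29% ± 0.33 in controls. Its share separated the sets, with 3.22% to 4.02% in set 1-4 against 3.01% to 3.21% in set 5-8, though only narrowly. The shares of both larger Camk2b isoforms had sets that did not overlap, as did 7.72% of isoform shares in genes with several isoforms. These 2 shares make up nearly the whole gene total, so their separation is 1 observation and not 2.

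In Camk2d, ENSRNOT00000015564 made up 77.0% ± 1.9 after kainate and 77.8% ± 1.8 in controls. The share of ENSRNOT00000016026 was 18.1% in kainate 1, 19.1% in kainate 2 and 18.7% in control 2, and between 11.9% and 16.4% in the other 13 libraries. The libraries that stood apart over all isoforms were therefore also the highest in this share. The share of ENSRNOT00000068198 was 7.68% ± 0.94 after kainate and 7.18% ± 0.56 in controls, with kainate higher in 7 of 8 pairs and a highest value of 9.80% in kainate 4.

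In Camk2g, ENSRNOT00000066163 made up 33.0% ± 1.3 after kainate and 33.0% ± 1.4 in controls. The means were 34.0% in set 1-4 and 32.0% in set 5-8, and the sets overlapped between 33.2% and 33.6%.

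**Figure D3:**
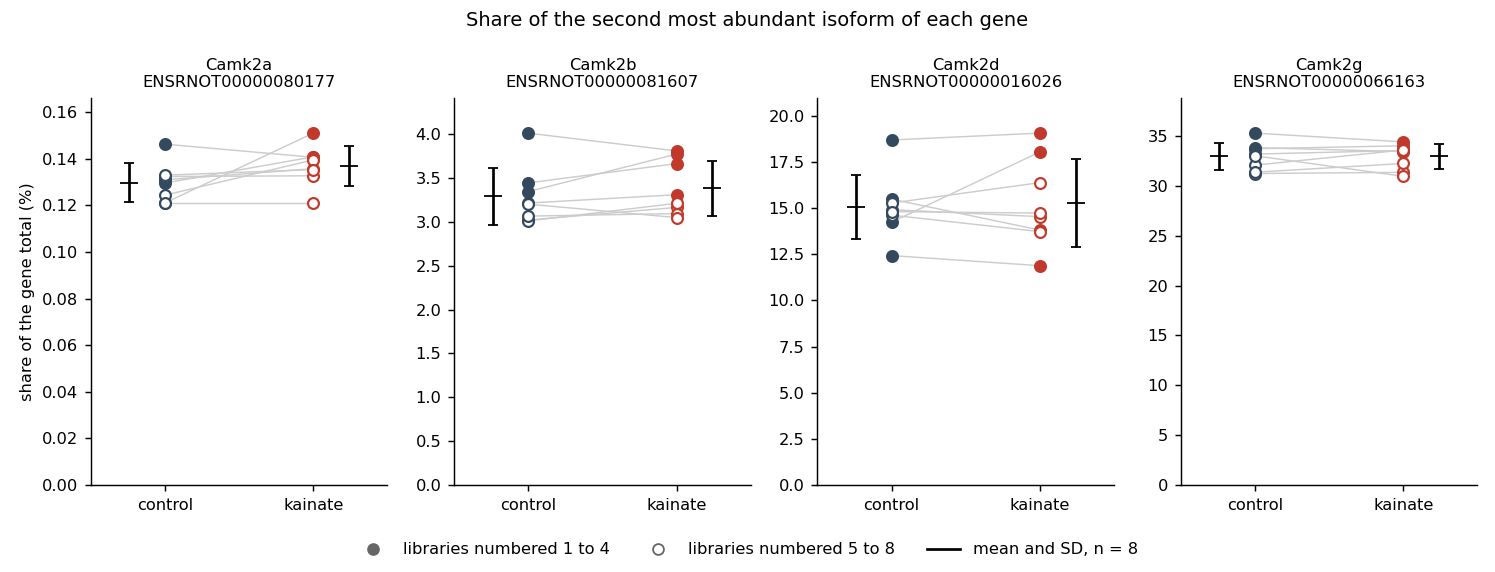
Share of the second most abundant isoform in the total of each CaM kinase II gene, in percent with axes from 0, 1 point per library, lines joining same-numbered libraries and bars for the mean and SD of 8 rats. Kainate and control overlap for each gene, and the Camk2d share is highest in 3 filled points, at 18.1% to 19.1%.

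The balance of subunits was followed as the difference of 2 log2 gene totals within a library. Only its change between libraries was read, since the 2 genes differ in transcript length. None of the 6 ratios passed an adjusted p of 0.05 in an exact two-sided permutation test over libraries, whose smallest possible p is 0.000155.

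The log2 ratio of Camk2a to Camk2b ran from -0.123 to 0.325 with a median of -0.0083 after kainate, and from -0.169 to 0.307 with a median of 0.031 in controls. The groups covered nearly the same range, and the mean difference was 0.034 with an exact permutation p of 0.689, which was also its adjusted p. By set, the ratio ran from 0.0014 to 0.325 in set 1-4 and from -0.169 to -0.018 in set 5-8. The sets did not overlap, which also held for 16.6% of the ratios of Camk2a to any other gene. The difference between kainate and control was 0.0017 within set 1-4 and 0.067 within set 5-8. Without the 3 libraries that stood apart it was -0.012, with the groups then unequally spread over the sets.

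The log2 ratio of Camk2a to Camk2d ran from 4.91 to 5.54 with a median of 5.09 after kainate, and from 4.81 to 5.43 with a median of 5.02 in controls. It was 5.52 in kainate 1, 5.54 in kainate 2 and 5.43 in control 2, and at most 5.10 in the other 13 libraries. The mean difference was 0.123, the largest of the 6, with kainate higher in 7 of 8 pairs. The exact permutation p was 0.244 and the adjusted p 0.408. An exact sign-flip test over the 8 pairs gave p = 0.0234 and, adjusted over the 6 ratios, 0.141. Without the 3 libraries that stood apart the difference was 0.055, with the groups then unequally spread over the sets. Within set 5-8, which lost no library, it was 0.069.

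The log2 ratio of Camk2b to Camk2d was higher after kainate by 0.088, with an exact permutation p of 0.162 and an adjusted p of 0.408. It was 0.175 higher within set 1-4 and 0.0016 within set 5-8, and 0.051 without control 1. That of Camk2a to Camk2g was higher by 0.071, with an adjusted p of 0.408 in the exact permutation test. The log2 ratios of Camk2b to Camk2g and of Camk2d to Camk2g differed by 0.036 and -0.052, each with the same adjusted p in that exact test. Within set 1-4 these differences were 0.072 and -0.103, and within set 5-8 they were 3.7e-05 and -0.0016. Camk2b to Camk2g was 0.016 without control 1, and Camk2d to Camk2g ran from -0.087 without control 2 to -0.029 without kainate 2.

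**Figure D4:**
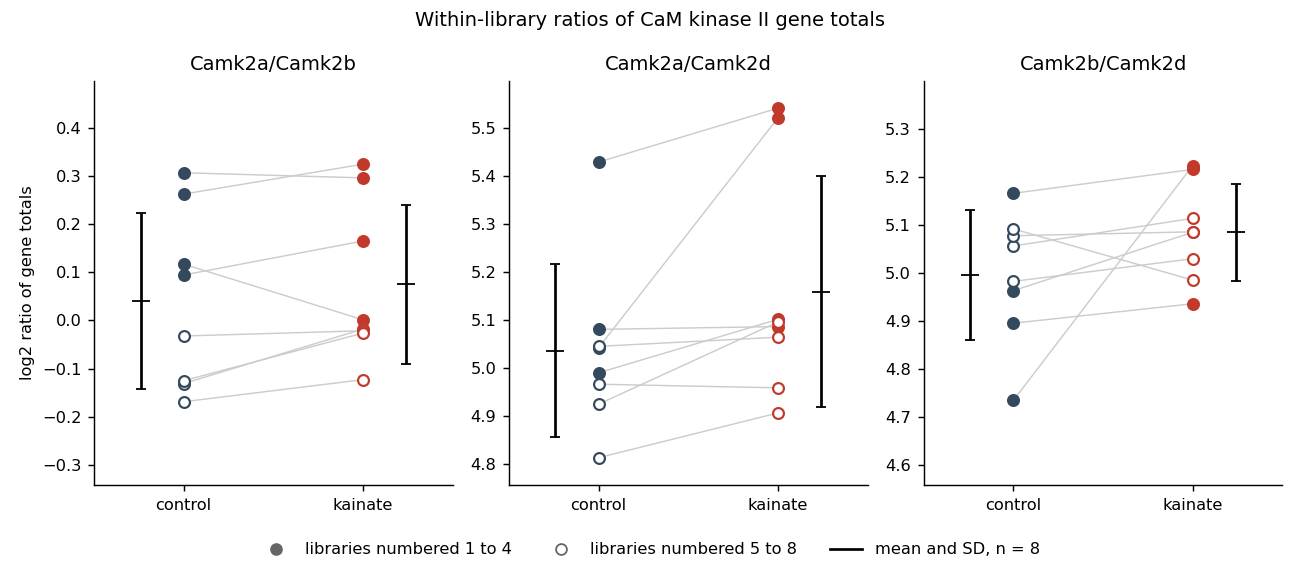
Log2 ratios of gene totals within each library for 3 pairs of CaM kinase II genes, 1 point per library, with lines joining same-numbered libraries and bars for the mean and SD of 8 rats. The axes do not start at 0; for Camk2a over Camk2b the filled points of set 1-4 lie at 0.0014 or above and the open points of set 5-8 at -0.018 or below.

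The split between the sets was larger in Camk2a than the difference between treatments, and is given as a description because it was known from earlier work on these data. Camk2a totals averaged 16.05 in set 1-4 and 15.82 in set 5-8, a difference of 0.223. The corresponding differences were -0.054 for Camk2b, -0.029 for Camk2d and 0.026 for Camk2g. Over all gene totals the median absolute difference was 0.069 between the sets and 0.021 between treatments.

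Of the isoforms, 2 of 10 had sets that did not overlap, the minor Camk2a isoform and ENSRNOT00000066163 of Camk2g, where 9.83% of all isoforms did not overlap. No gene total of the family had separate sets, against 10.7% of all gene totals. Kainate and control values overlapped for every isoform and gene total in the table (0%).

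Within set 1-4 the difference between kainate and control was 0.10 for the Camk2a total, 0.098 for Camk2b, -0.077 for Camk2d and 0.025 for Camk2g. Within set 5-8 the values were 0.060, -0.0072, -0.0089 and -0.0073 in the same order. The difference between sets in the effect of kainate was tested as an interaction in limma. Its smallest unadjusted p among members was 0.135, for the major Camk2b isoform, and every adjusted p was 1.00.

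Across the 8 libraries of set 1-4, Camk2d totals had a negative Pearson r with each of the other genes, of -0.760 with Camk2a, -0.799 with Camk2b and -0.848 with Camk2g. The other 3 pairs had positive coefficients there, from 0.636 for Camk2a and Camk2b to 0.808 for Camk2a and Camk2g. Across the 8 libraries of set 5-8 all 6 coefficients were positive, from 0.096 to 0.708. Among the 5 libraries of set 1-4 other than those that stood apart, Camk2a had r of 0.556 with Camk2d, -0.545 with Camk2b and -0.656 with Camk2g, each opposite in sign to its value over the 8. Camk2d had r of -0.773 with Camk2b and -0.556 with Camk2g among these 5. When only the 2 farthest libraries of set 1-4 were left out for a pair, 6 remained. Camk2a then had r of -0.629 with Camk2d, 0.771 with Camk2g and 0.078 with Camk2b. The relations of Camk2a within set 1-4 thus depended on which libraries were left out. All values of a library share its scaling, and 5, 6 or 8 libraries allow these coefficients only as descriptions.

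Among 13057 other gene totals, those most like each family gene were ranked by the lower of its r over set 1-4 and its r over set 5-8. For Camk2a they were Crim1 at 0.940, Ski at 0.936, Ppp2r2c at 0.922, Gfod1 at 0.921 and RGD1560470 at 0.919. For Camk2b they were Ncdn at 0.905, Sgsm2 at 0.894, Camkk1 at 0.869, Prmt8 at 0.861 and Pdzd4 at 0.856. Camkk1 also belongs to the list of other calmodulin-dependent kinases below. For Camk2d they were Tfrc at 0.882, Klf10 at 0.850, Bche at 0.842, Mertk at 0.828 and Col4a2 at 0.828. For Camk2g they were Pknox2 at 0.863, Pcbp2 at 0.818, Upf1 at 0.816, Tex40 at 0.814 and Fmnl1 at 0.807. Each is the top of many genes ranked on 8 libraries per set. For all 5 genes of Camk2a the value given is the r over set 1-4, which holds the 3 libraries that stood apart. Over set 5-8 their r with Camk2a ran from 0.928 to 0.964.

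The genes that act on or with CaM kinase II were described in 7 lists. In limma 0 genes of any list passed an adjusted p of 0.05, against a background of 0% of gene totals, and 0 had an unadjusted p under 0.05 where 1.39% of all gene totals did.

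Of the inhibitor proteins, Camk2n1 differed by 0.017 ± 0.082 (SE) and Camk2n2 by -0.026 ± 0.064. Both bind the active kinase and block it, and the kainate and control levels of each overlapped. Calmodulin and the small proteins that bind it had 2 of 6 measured means higher after kainate, with a median difference of -0.010, and 4 of 6 higher in set 1-4 alone against 0 of 6 in set 5-8 alone. Calm2, which encodes calmodulin, differed by 0.0048 ± 0.037, and Calm3 was not analysed here. Pcp4, which speeds the exchange of calcium on calmodulin, differed by -0.062 ± 0.074, and Gap43, a presynaptic calmodulin-binding protein, by -0.047 ± 0.059.

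Other calmodulin-dependent kinases had 8 of 12 means higher, with a median difference of 0.029, and 10 of 12 in set 1-4 against 6 of 12 in set 5-8. Camk1d, a CaM kinase I, differed by 0.107 ± 0.056 (SE) with a limma unadjusted p of 0.0754. Camk4, the nuclear CaM kinase IV, differed by 0.074 ± 0.073, and Camkk2, their activating kinase, by 0.053 ± 0.043. Phosphatases and their regulators had 5 of 14 means higher and a median of -0.0090, with 10 of 14 higher in set 1-4 alone and 4 of 14 in set 5-8 alone. Ppp3ca, the catalytic subunit of calcineurin, differed by 0.058 ± 0.037. Ppm1e, a phosphatase that removes phosphate from CaM kinases, differed by 0.093 ± 0.072, and Ppp1r9a, the neurabin scaffold of protein phosphatase 1, by 0.145 ± 0.119.

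Postsynaptic binding partners and substrates had 24 of 24 measured means higher after kainate, with a median difference of 0.051, against 47.6% of all gene totals higher and a median of -0.0017. None of the 24 passed the test, and Kcnd2 was not analysed here. The list also held substrates that are not postsynaptic, such as Syn1 and Creb1. Tiam1, an activator of Rac that binds the kinase, differed by 0.171 ± 0.101 (SE), Kalrn, a spine guanine nucleotide exchange factor, by 0.079 ± 0.062, and Actn1, an actin crosslinker, by 0.047 ± 0.037. With the replicate number as a block, 5 of the 24 had an unadjusted limma p under 0.05, all higher, where 4.05% of all gene totals had one in that direction. With the block, 4 of 15 splicing regulators, 2 of 14 phosphatase genes, 2 of 14 mRNA transport genes and 1 of 12 other kinases were also higher at that level, so the postsynaptic list was not alone. The block did not bring any adjusted p under 0.05. In set 1-4 alone 22 of 24 means were higher, in set 5-8 alone 21 of 24, and without the 3 libraries that stood apart 21 of 24. These genes share the 16 libraries, so their agreement in sign is not a count of independent results.

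Genes of mRNA transport and local translation, through which Camk2a mRNA reaches and is translated in dendrites, had 13 of 14 means higher and a median of 0.021, with 10 of 14 in set 1-4 and 13 of 14 in set 5-8. Pura and Purb, which bind single-stranded DNA and RNA in transport granules, differed by 0.090 ± 0.068 and 0.115 ± 0.088. Cpeb4, of the cytoplasmic polyadenylation family, differed by 0.116 ± 0.098. Splicing regulators had 12 of 15 means higher and a median of 0.039, with 11 of 15 in set 1-4 and 15 of 15 in set 5-8. Rbfox3, the neuronal antigen NeuN, differed by 0.075 ± 0.041 with a limma unadjusted p of 0.0832. Celf2 differed by 0.114 ± 0.072 and was higher in 8 of 8 pairs, and Srsf11 differed by 0.037 ± 0.031.

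**Figure D5:**
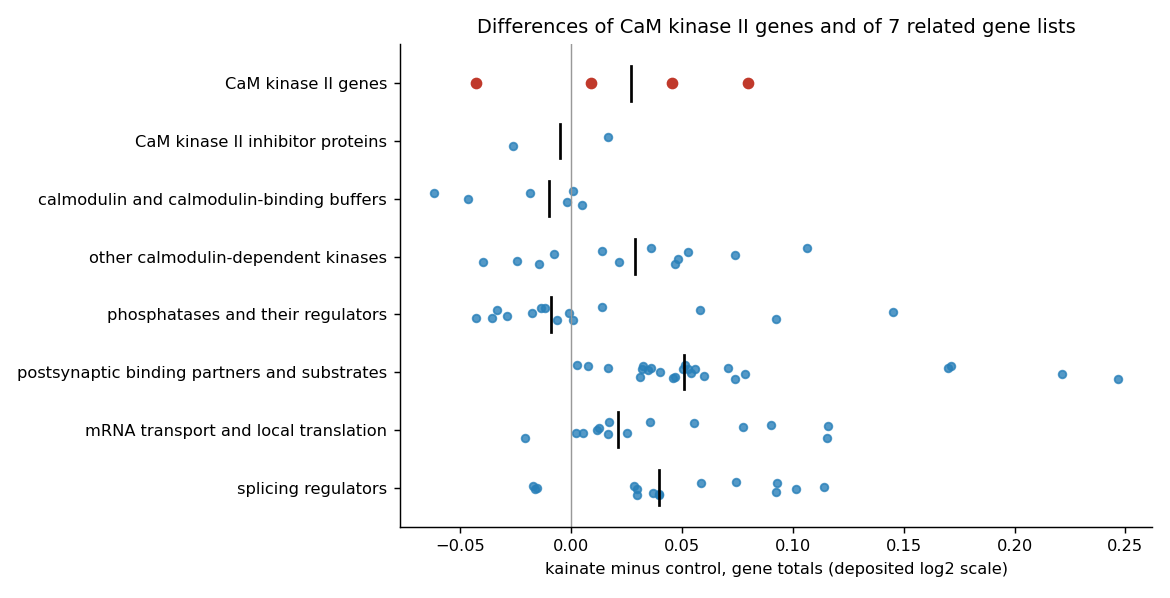
Differences of gene totals, kainate minus control, on the deposited log2 scale, 1 point per gene for the 4 CaM kinase II genes and 7 lists of related genes, with a bar at each median. All 24 points of the postsynaptic list lie above 0, and none of the genes shown passed the test.

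Markers of the cell types that the dissected tissue could hold were compared in the same way, and none passed an adjusted p of 0.05 in limma. Dentate granule cell markers had 6 of 6 means higher after kainate with a median difference of 0.107, and their summed level was 12.88 to 13.35 in kainate and 12.89 to 13.15 in control rats. Markers of myelinating oligodendrocytes had 0 of 8 means higher with a median of -0.129, at summed levels of 17.75 to 18.21 in kainate and 17.87 to 18.30 in control rats. CA1 pyramidal markers had 3 of 6 means higher with a median of 0.015, and general excitatory markers 2 of 5 with a median of -0.0029. CA3 markers had 1 of 6 means higher, inhibitory neuron markers 2 of 7, astrocyte markers 3 of 6, microglial markers 2 of 5 and vessel markers 4 of 6. With the replicate number as a block, 3 of 6 dentate markers were higher at an unadjusted limma p under 0.05 and 4 of 8 myelin markers lower, where 4.05% of all gene totals were higher and 2.55% lower. At that level 1 of 7 inhibitory, 1 of 6 astrocyte and 1 of 5 microglial markers were also lower. Of the 6 CA1 markers, 1 was higher and 1 lower, so the dentate and myelin lists were not alone. No measured marker was at 0, the weakest being the CA3 marker Iyd at a mean of 9.58 normalized counts in the authors' deposited table. The listed markers Pou3f1, Neurod2, Slc1a2, Itgam and Pecam1 were not analysed here. The part of tissue makeup in the differences of the CaM kinase II genes was not tested.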

How the data were processed

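RNA of 16 CA1 samples, 8 kainate and 8 control, was made into standard Illumina libraries, per the labels' protocols. The submitters' processing notes name GATK, SAMtools, DESeq2, RSEM and Trim Galore, without versions. The aligner, annotation and genome build: not given in the sources used here. For each isoform and library the authors deposited 1 log2 value; the transform is not named, and from the values it compresses differences of weak isoforms. Per the file headers, the authors also deposited a mean normalized count (signal), a log2 fold change with its ratio (fold), a Wald score, a p-value and an adjusted p-value per isoform. Reads shared by the isoforms of a gene were divided between them by estimation, if RSEM made the values, so single isoforms are less certain than gene totals. Read totals are not in these values, so no depth or counting interval is given. All 16 deposited per-library columns mapped to samples, leaving 0 unmapped.

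limma 3.58.1 in R 4.3.3 (mean-variance trend, robust empirical Bayes) was fitted to the log2 values as deposited, with no constant added, for all 21698 isoforms and 16602 gene totals, with diffSplice for isoform usage. Tests were two-sided, adjusted by Benjamini and Hochberg over all features at 0.05. Ratios were tested by exact permutation over libraries, adjusted over 6. The steps were tested on simulated data.

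The named genes were all CaM kinase II isoforms, Camk2n1, Camk2n2, Calm2, members past the threshold or otherwise the 3 with the smallest p of each list, and the 5 genes most like each member among those averaging 100 normalized counts or more. A gene that the rule names is not reported here. Members and lists were chosen with earlier results of these data known. Same-numbered libraries had deviations from their group means that correlated in 8 of 8 pairs, with r from 0.127 to 0.781, above a limit of 0.1. Both libraries of a number lie in the same set, so these r cannot tell matching by number from the split between sets. The main tests ignored the numbers, which served as pairs in the replicate block, the sign-flip test and the counts of pairs. The labels do not say that these rats were matched. Alternatives were a replicate block, a term for the sets, each set alone, a minimum mean of 100 normalized counts, median centring, an added constant of 16, no trend, and leaving out libraries. Leaving out kainate 1, kainate 2 and control 2 was chosen after seeing the data. It left the groups unequally spread over the sets, and that fit had no term for the sets.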

Additional observations from a re-analysis of the deposited data

Results flagged for a closer look

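Within groups of 8, a library was set apart by its gap to the nearest other library relative to the group's range (Dixon's criterion at 95%) in 4 of 40 series of CaM kinase II values, where chance flags about 1 in 20. The series are not independent, since totals and ratios are built from the isoforms and share the same rats, so these counts are not a test of excess. Kainate 4 was low in the major Camk2b isoform ENSRNOT00000085265, at a level of 15.72 with the next library at 15.82. Control 2 was high in the other 3 series. Its level of the Camk2b isoform ENSRNOT00000081607 was 11.23, with the next control at 10.95. Its Camk2g gene total was 13.14, with the next control at 13.07. Its log2 ratio of Camk2a to Camk2d was 5.43, with the next control at 5.08. Control 2 is also 1 of the 3 libraries that stood apart on the first principal component of all isoforms, and the cause was not tested.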

How the results depend on the processing

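In none of the alternatives, up to 33 for each limma result and 31 for each ratio, did a CaM kinase II isoform, gene total, isoform mix or ratio, or a gene of the pathway lists, pass the adjusted threshold. The lowest adjusted p over these alternatives was 0.750 for a gene total (Camk2a), 0.767 for an isoform and 0.141 for a ratio (Camk2a to Camk2d). The Camk2a total kept its sign in 33 of 33 alternatives and the Camk2d total in 33 of 33, the Camk2b total in 32 and the Camk2g total in 31.

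In set 5-8 alone the differences reversed to -0.0081 for ENSRNOT00000085265 and -0.0072 for the total of Camk2b, and to -0.0098 for ENSRNOT00000065644, -0.0024 for ENSRNOT00000066163 and -0.0073 for the total of Camk2g. ENSRNOT00000066163 also reversed to -0.00026 and -0.0021 without both libraries of replicate 1 or 8. Without the 3 libraries that stood apart it was -0.0043, and the difference of the Camk2a to Camk2b ratio was -0.012. That removal left the groups unequally spread over the sets, with no term for them, so these reversals can hold part of the gap between sets. Leaving out 1 library, or both of a replicate number, at a time gave -0.0079 to 0.026 for ENSRNOT00000066163, -0.0025 to 0.030 for ENSRNOT00000065644, -0.0041 to 0.025 for the Camk2g total, -0.068 to 0.016 for ENSRNOT00000016026, -0.0057 to 0.080 for ENSRNOT00000068198 and -0.0012 to 0.073 for the Camk2a to Camk2b ratio. Without a change of sign, single libraries moved the Camk2a total between 0.035 and 0.114, its minor isoform between 0.094 and 0.195, the Camk2b total between 0.022 and 0.063, ENSRNOT00000085265 between 0.021 and 0.062, ENSRNOT00000067162 between 0.022 and 0.059, the Camk2d total between -0.065 and -0.029, ENSRNOT00000015564 between -0.089 and -0.036, the Camk2a to Camk2d ratio between 0.068 and 0.179 and the Camk2a to Camk2g ratio between 0.036 and 0.103. The cause was not tested.

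Isoforms with an unadjusted limma p under 0.05 numbered 325 of 21698, and 1330 with the replicate block, 1044 with a term for the sets, 1090 in set 5-8 alone, 145 with the minimum mean of 100 normalized counts, 212 without both libraries of replicate 8, and 227 to 636 without 1 library. Members among them numbered 0, and 1 with the replicate block, with the term for the sets and without control 2. Genes with changed isoform usage numbered 0, and 3 in set 5-8 alone and 1 without control 1. With that minimum mean the minor Camk2a and the weakest Camk2b isoform gave no value, and ratios have no value under median centring or without the trend. The replicate block changed no call.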
